A study of Mus musculus with 12 samples.

Results

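The skeletal muscle genes described here are 40 of the 34347 genes in the deposited table of mouse dental tissues. They were chosen by name, as genes known from skeletal muscle, and fall into 6 roles: 2 precursor factors, 5 myogenic factors, 1 gene of myoblast fusion, 21 genes of the sarcomere, 6 genes of the muscle membrane and of calcium release, and 5 genes of assembly, scaffold and energy. All 40 names were found in the table. RNA was sequenced in bulk from dental epithelium and dental mesenchyme of wild-type C57BL/6 mouse embryos, at the embryonic stages E11.5 and E13.5, in 4 groups of 3 libraries. No group carried a transgene, a deletion or a treatment. According to the methods of the study the piece dissected was the mandible at E11.5 and the tooth germ at E13.5, the epithelium was freed with dispase, and the dissection took incisor as well as molar regions. A difference between the stages therefore cannot be told apart from a difference in the piece dissected. The labels speak of biological replicates and also of pooled RNA, and the methods give a total number of embryos without saying how they were divided among the libraries, so the p-values below measure the spread between these libraries.

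Skeletal muscle forms from precursors that are set aside by Pax3 and Pax7 in the trunk, while the jaw muscles of the first pharyngeal arch come from cranial mesoderm, in which other factors such as Tbx1 and Msc precede Myf5 and Myod1. Myf5, Myod1, Myog and Myf6 are the myogenic factors, basic helix-loop-helix proteins that bind the E-box CANNTG and switch on the contractile genes together with MEF2 proteins. Myoblasts then fuse and build sarcomeres from actins, myosins, troponins and the giant scaffold proteins, and they place acetylcholine receptors and calcium channels in their membrane.

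The promoters of a myogenic factor, a contractile gene and a receptor gene are shown because these 3 genes stand for successive steps of the program and their levels are described below. Each sequence gives the 250 bases before the gene start that RefSeq annotates on GRCm38.p6, 5′ to 3′ on the strand of the gene. Capitals mark every E-box CANNTG, the CArG box bound by serum response factor, and the TATAAA element. The windows lie at chr1:134289754-134290003 on the plus strand for Myog, at chr8:123894776-123895025 on the minus strand for Acta1 and at chr2:73580339-73580588 on the minus strand for Chrna1.
Myog: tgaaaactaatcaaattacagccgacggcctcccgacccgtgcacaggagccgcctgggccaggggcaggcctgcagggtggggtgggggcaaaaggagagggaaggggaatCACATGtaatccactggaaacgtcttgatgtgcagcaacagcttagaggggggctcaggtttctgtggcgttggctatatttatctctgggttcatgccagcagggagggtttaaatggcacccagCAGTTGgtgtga
Acta1: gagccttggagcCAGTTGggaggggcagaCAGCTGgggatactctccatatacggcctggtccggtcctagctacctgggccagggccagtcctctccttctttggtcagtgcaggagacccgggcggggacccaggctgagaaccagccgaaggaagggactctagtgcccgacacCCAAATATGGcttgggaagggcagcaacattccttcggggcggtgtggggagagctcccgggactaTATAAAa
Chrna1: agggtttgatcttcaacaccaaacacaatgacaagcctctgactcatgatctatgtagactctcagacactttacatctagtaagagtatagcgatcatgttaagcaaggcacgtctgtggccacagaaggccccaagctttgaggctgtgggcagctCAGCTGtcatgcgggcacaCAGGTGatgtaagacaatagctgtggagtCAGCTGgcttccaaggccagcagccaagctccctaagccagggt

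Myog held E-boxes with the letters CACATG and CAGTTG, the second of them 12 to 7 bases before the RefSeq start. The gene as deposited starts at 134289989, before the window ends at 134290003, so this second E-box lies within it. Acta1 held the E-boxes CAGTTG 238 bases and CAGCTG 221 bases before the start, and a CArG box 73 to 64 bases before it. Chrna1 held CAGCTG at 2 places, 92 and 44 bases before the start, with CAGGTG between them. Promoter windows were found for 30 of the 40 genes, some with several starts, which gave 35 windows. The E-box CANNTG, searched on both strands, was in 28 of the 35 windows (80.0%) and in 66.2% of all 32851 windows of the table. Its form CAGCTG, which is a subset of CANNTG, was in 12 of the 35 (34.3%) and in 13% of all windows. The CArG box was in 3 of the 35 (8.57%) and in 1.47% of all, and the MEF2 site in 4 of the 35 (11.4%) and in 2.92% of all. CATTCC, the core of the MCAT element, was in 7 windows (20.0%, against 12.6%), and TATAAA on the strand of the gene in 3 (8.57%, against 7.59%). These are counts of letters, not of bound sites. The genes without a window in the table were Myod1, Myom2, Tnnt3, Pax3, Chrnd, Neb, Myf6, Tnni2, Tcap and Mymk.

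The libraries held between 70134554 and 79349382 counts, more than the sequenced reads that the study lists for any of them, and how the counts were made is not given in the sources used here, so the p-values rest on counts of unknown origin. Levels are given in FPKM, fragments scaled to the length of the exons and to the mapped fragments of the library, and library values are listed in the order of replicates 1, 2 and 3. The bracketed library names of the titles carry a number in 8 libraries and none in 4, which are replicate 3 of each epithelium and replicate 1 of each mesenchyme. These 4 stood apart in the muscle genes, as described further on. E11.5 epithelium replicates 1 and 2 differed least within a group, and a fit that counted them as 1 library is given where it changed a result. Keratins and junction genes, a list of 15, summed to 303 to 357 FPKM in the E11.5 epithelium libraries and to 29.6 to 34.3 in their mesenchyme counterparts. At E13.5 they summed to 2362, 3464 and 708 FPKM in epithelium and to 87.9 to 128 in mesenchyme, so that E13.5 epithelium replicate 3 had the least of its group.

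The label of the gene set was checked with its markers Myod1, Myog and Acta1, and all 3 were present in all 12 libraries. The marker Myod1 is the factor that commits cells to muscle, and its gene lies on chromosome 7 from 46376474 to 46379099 (mm10). It stood at 11.2, 11.3 and 4.23 FPKM in E11.5 epithelium, at 3.25, 7.77 and 7.98 in E11.5 mesenchyme, at 8.26, 7.08 and 12.3 in E13.5 epithelium and at 13.3, 17.1 and 22.8 in E13.5 mesenchyme. Only the E13.5 mesenchyme libraries lay wholly above the other 3 groups. Myog, the factor of terminal differentiation on chromosome 1 from 134289989 to 134292548, stood at 25.1, 25.7 and 7.11 FPKM in E11.5 epithelium, at 3.15, 13.7 and 13.6 in E11.5 mesenchyme, at 32.6, 27.1 and 46.8 in E13.5 epithelium and at 32.8, 49.96 and 68.97 in E13.5 mesenchyme. All 6 libraries of E13.5 exceeded all 6 of E11.5. Acta1, the skeletal alpha-actin on chromosome 8 from 123891769 to 123894751, stood at 3.34, 2.86 and 0.617 FPKM in E11.5 epithelium, at 0.198, 1.44 and 1.83 in E11.5 mesenchyme, at 11.3, 12.2 and 29.0 in E13.5 epithelium and at 18.6, 44.9 and 53.5 in E13.5 mesenchyme. Here too the stages did not overlap, while the tissues of one stage did. In bulk RNA, fewer muscle cells and less RNA per muscle cell cannot be told apart.

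**Figure D1:**
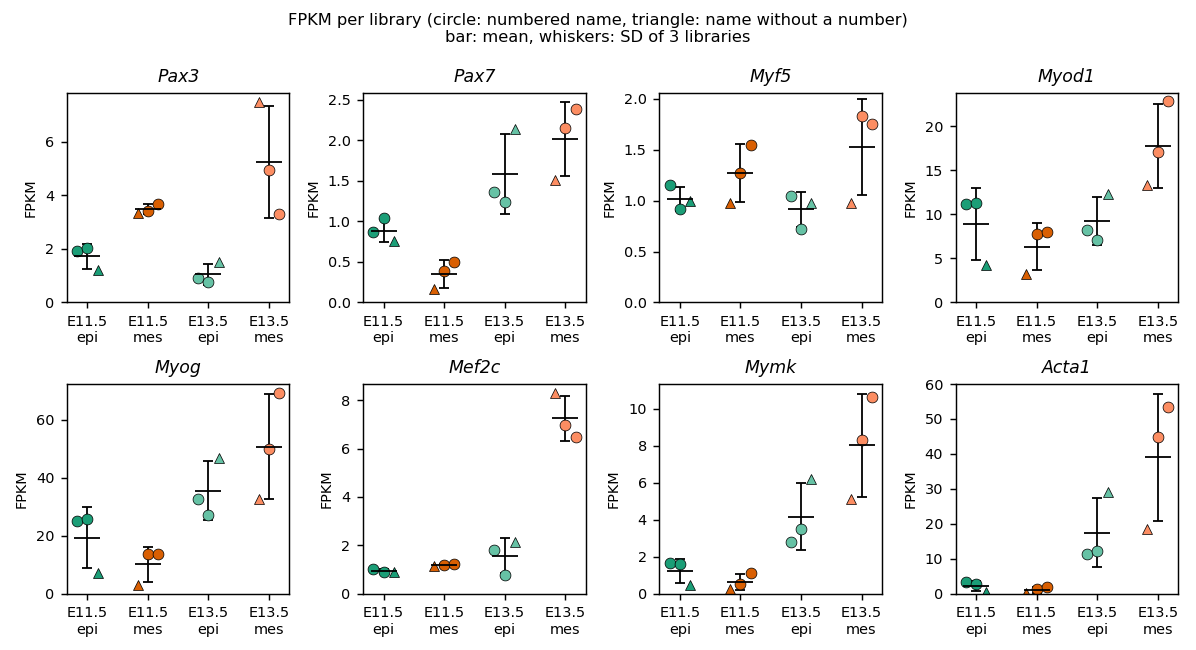
FPKM (vertical axes, from 0) of 8 muscle genes in the 4 groups, with 1 point for each library, a bar at the mean and whiskers for the SD of 3 libraries. Epi stands for epithelium and mes for mesenchyme. Triangles are the libraries whose names carry no number: for Myog they read 7.11, 3.15, 46.8 and 32.8, the lowest of their group in 3 groups and the highest in E13.5 epithelium.

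Some of the 12 cardiac genes were near 0 and others were not. Nppa, the atrial peptide, was listed at 0 in 9 of the 12 libraries, Myl7 stayed at or below 0.513 FPKM and Myh6 at or below 0.341. The cardiac troponin I gene Tnni3 stood at 0.495 to 1.35 FPKM at E11.5, where it held 24.2 to 47.6% of the troponin I signal, and at 3.72 to 7.87% of it at E13.5. The transcription factor genes Hand1 and Nkx2-5 stood at 6.76 to 15.05 and 1.19 to 2.56 FPKM at E11.5. The 12 cardiac genes summed to 10.2 to 19.9 FPKM at E11.5 and to 3.38 to 11.9 at E13.5. Hand1, which had the most counts of the 12 in the E11.5 libraries, had 1180 to 2483 counts there and 46 to 331 at E13.5. The sum is thus largely not one of heart contractile genes at E11.5, and the part of heart muscle in the muscle values was not tested. The 9 smooth muscle genes summed to 19.0 to 52.3 FPKM at E11.5 and 52.7 to 147 at E13.5. Acta2, the smooth muscle actin that early skeletal muscle also uses, made up most of this sum in the libraries given here. It stood at 35.5, 35.4 and 19.8 FPKM in E11.5 epithelium, beside sums of 52.3, 50.9 and 35.8. In E13.5 mesenchyme it stood at 62.3, 89.3 and 111, beside sums of 87.9, 120 and 147. Myh11, Cnn1 and Myocd had at most 557, 120 and 53 counts in a library. Smtn and Tagln reached 5092 and 2793 counts, and Acta2 reached 21237. The part that smooth muscle cells have in the actin and desmin values was not tested.

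The precursor factors were low and did not move together. Pax3, on chromosome 1 from 78101267 to 78197134, stood at 1.93, 2.03 and 1.20 FPKM in E11.5 epithelium, at 3.35, 3.42 and 3.69 in E11.5 mesenchyme, at 0.907, 0.747 and 1.5 in E13.5 epithelium and at 7.48, 4.92 and 3.31 in E13.5 mesenchyme. Mesenchyme exceeded epithelium at each stage with no overlap. Pax7, on chromosome 4 from 139737062 to 139833528, stood at 0.866, 1.04 and 0.755 FPKM in E11.5 epithelium, at 0.161, 0.387 and 0.503 in E11.5 mesenchyme, at 1.37, 1.24 and 2.15 in E13.5 epithelium and at 1.51, 2.15 and 2.39 in E13.5 mesenchyme. At E11.5 its order was the reverse of that of Pax3. The ratio of Pax7 to Pax3 was 0.449 to 0.631 in the E11.5 epithelium libraries and 0.0480 to 0.136 in E11.5 mesenchyme, and 1.43 to 1.67 in the later epithelium and 0.202 to 0.722 in the later mesenchyme. Epithelium thus had the higher ratio at each stage, with no overlap of the libraries. Both genes are also known from the neural crest, and the 11 neural crest and melanoblast genes summed to 22.9 to 33.9 FPKM in epithelium and 9.45 to 13.2 in mesenchyme at the earlier stage, and to 32.5 to 57.8 and 24.2 to 34.4 at the later one. Their part in the Pax values was not tested.

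Among the other myogenic factors, Myf5, the earliest of them in the embryo, overlapped between all 4 groups. It stood at 1.15, 0.918 and 0.994 FPKM in E11.5 epithelium, at 0.981, 1.27 and 1.55 in E11.5 mesenchyme, at 1.04, 0.721 and 0.980 in E13.5 epithelium and at 0.979, 1.83 and 1.76 in E13.5 mesenchyme. Myf6, the factor of late fibres, was listed at 0 in 4 libraries and reached 0.207 FPKM at most. Mef2c, which works with the myogenic factors and also acts in endothelium and cartilage, stood at 1.04, 0.877 and 0.891 FPKM in E11.5 epithelium, at 1.15, 1.20 and 1.24 in E11.5 mesenchyme, at 1.81, 0.763 and 2.13 in E13.5 epithelium and at 8.30, 6.97 and 6.47 in E13.5 mesenchyme. The 3 libraries of E13.5 mesenchyme were far above the other 9. In the same libraries the 8 endothelial markers summed to 85.8 to 95.1 FPKM, against 13.4 to 68.2 in E13.5 epithelium, and the 10 markers of chondrocytes and osteoblasts to 338 to 519, against 28.9 to 150, and their part in the Mef2c level was not tested.

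Myomaker (Mymk), the membrane protein needed for myoblasts to fuse, stood at 1.64, 1.59 and 0.458 FPKM in E11.5 epithelium, at 0.274, 0.510 and 1.11 in E11.5 mesenchyme, at 2.78, 3.51 and 6.20 in E13.5 epithelium and at 5.10, 8.30 and 10.7 in E13.5 mesenchyme. All libraries of E13.5 lay above all of E11.5.

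**Figure D2:**
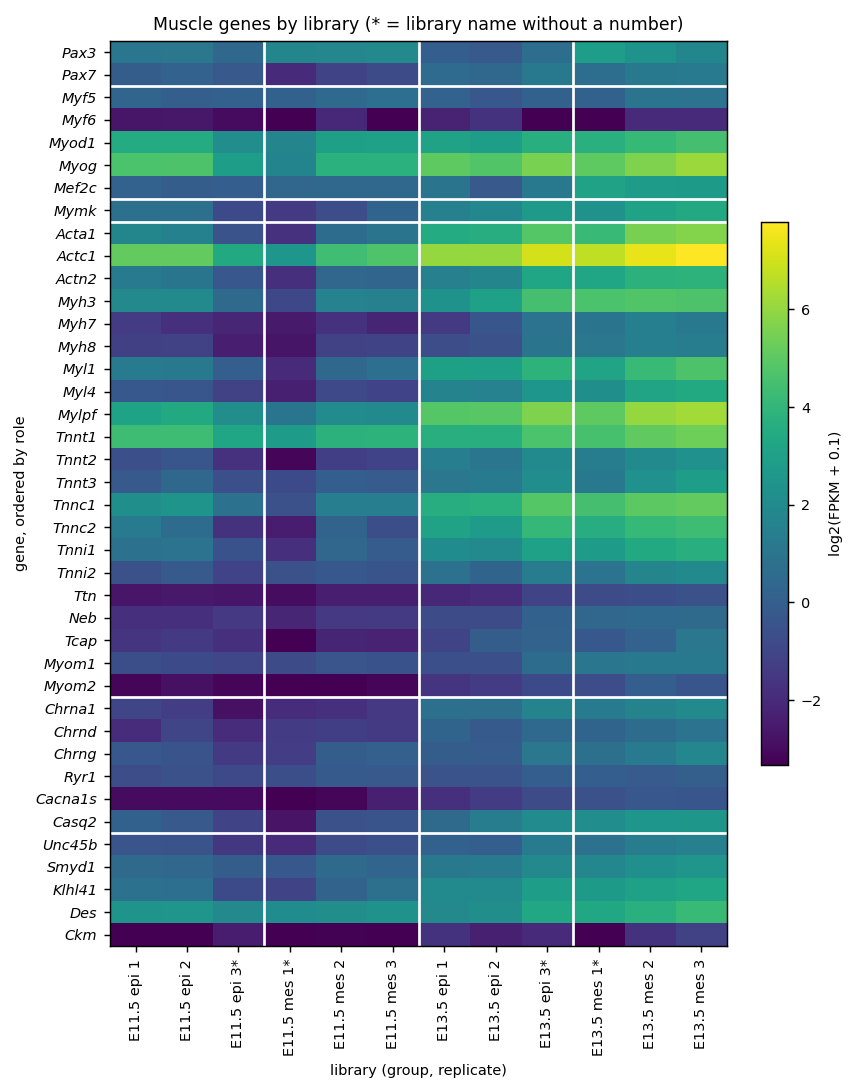
Level of each of the 40 muscle genes (rows, by role) in the 12 libraries (columns), as the colour of log2(FPKM + 0.1), with epi for epithelium, mes for mesenchyme and an asterisk on the 4 libraries whose names carry no number. E13.5 columns are brighter for most sarcomere genes, Actc1 is the brightest row, and Myf6 and Ckm stay dark throughout.

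The sarcomere genes held the larger part of the summed muscle FPKM in 11 of the 12 libraries, and in E11.5 mesenchyme replicate 1 they had 18.3 of 37.3 FPKM. Their 21 values summed to 88.2, 89.2 and 33.0 FPKM in E11.5 epithelium, to 18.3, 54.4 and 59.9 in E11.5 mesenchyme, to 170, 174 and 363 in E13.5 epithelium and to 284, 467 and 560 in E13.5 mesenchyme. The cardiac alpha-actin Actc1, which embryonic skeletal muscle uses before Acta1, was the most abundant of the 40 genes in 11 of the 12 libraries, and in E11.5 mesenchyme replicate 1 Tnnt1 exceeded it. It stood at 35.05, 34.2 and 10.8 FPKM in E11.5 epithelium, at 5.67, 20.6 and 26.7 in E11.5 mesenchyme, at 65.2, 64.7 and 136 in E13.5 epithelium and at 105, 173 and 221 in E13.5 mesenchyme. Actc1 exceeded Acta1 by 10.5 to 28.6 times in the libraries of E11.5 and by 3.85 to 5.77 times in those of E13.5. Acta1 thus held 7.28 ± 1.67% (SD, n = 3) of the 2 actins in the earlier epithelium and 16.1 ± 1.45% in the later one, and 5.44 ± 1.78% and 18.4 ± 2.99% in mesenchyme, shares given with no test.

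Myosin heavy chain was mainly of the embryonic form. Myh3, its gene, stood at 3.68, 3.84 and 1.34 FPKM in E11.5 epithelium, at 0.436, 2.97 and 2.77 in E11.5 mesenchyme, at 5.04, 8.14 and 22.4 in E13.5 epithelium and at 24.7, 27.1 and 25.5 in E13.5 mesenchyme. Of the summed FPKM of 6 skeletal heavy chain genes, Myh3 had 77.3 to 84.9% in every library. The perinatal Myh8 had 5.72 to 11.1% and the slow Myh7 3.45 to 13.3%. Of the adult fast forms, Myh1 had 0 to 5.25%, and Myh2 and Myh4 had at most 0.652 and 1.28%. Myh3 thus led the heavy chains in all 12 libraries, whatever their level. Among light chains the fast regulatory chain Mylpf led, and it stood at 8.63, 10.8 and 4.38 FPKM in E11.5 epithelium, at 1.88, 4.02 and 3.76 in E11.5 mesenchyme, at 28.5, 30.0 and 49.5 in E13.5 epithelium and at 32.3, 65.4 and 74.8 in E13.5 mesenchyme.

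The troponins differed in makeup between the stages. The slow form Tnnt1 held 92.5 ± 1.36% (SD, n = 3) of the troponin T signal in the earlier epithelium and 74.7 ± 1.14% in the later one, while in mesenchyme it held 92.7 ± 0.728% and then 79.8 ± 3.38%. Tnnt2, a cardiac form that early skeletal muscle also makes, held 2.56 ± 0.578% of it in the earlier epithelium and 12.8 ± 2.03% in the later one, and 1.55 ± 1.22% and 9.05 ± 0.195% in mesenchyme. These shares are a description, with no test. Tnnt1 itself stood at 20.4, 19.9 and 9.18 FPKM in E11.5 epithelium, at 7.0, 14.1 and 14.4 in E11.5 mesenchyme, at 12.7, 12.5 and 25.0 in E13.5 epithelium and at 23.1, 33.2 and 40.5 in E13.5 mesenchyme. It was thus already high at E11.5 and overlapped between the stages in epithelium. Of the remaining thin filament genes, the troponin C genes Tnnc1 and Tnnc2 spanned 0.578 to 5.36 and 0.0838 to 2.20 FPKM at E11.5, and 12.2 to 34.7 and 6.89 to 19.9 FPKM at E13.5. The slow troponin I gene Tnni1 spanned 0.193 to 1.76 FPKM and then 3.72 to 12.7, and the fast Tnni2 0.373 to 0.786 and then 1.10 to 3.84. None of these 4 overlapped between the stages. The Z-disc protein alpha-actinin 2 (Actn2) spanned 0.186 to 2.20 FPKM at E11.5 and 2.75 to 14.4 at E13.5, again with no overlap, while Tcap, which caps titin at the Z-disc, stayed at 0.270 FPKM or less and then reached 0.382 to 2.02. Of the M-band proteins, Myom1 spanned 0.410 to 0.672 FPKM and then 0.555 to 2.14, with overlap, and Myom2 was at 0.0422 or less and then at 0.223 to 0.912.

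The genes of membrane and calcium release were low. Chrna1, the alpha subunit of the muscle acetylcholine receptor, stood at 0.393, 0.308 and 0.0405 FPKM in E11.5 epithelium, at 0.167, 0.195 and 0.259 in E11.5 mesenchyme, at 1.59, 1.62 and 3.05 in E13.5 epithelium and at 2.39, 3.04 and 3.78 in E13.5 mesenchyme. The stages were apart in both tissues. Cacna1s, the voltage sensor, had 0.0981 FPKM at most at E11.5 and 0.185 to 0.715 at E13.5, and Ryr1, the calcium release channel, stayed between 0.449 and 0.942 in all 12 libraries. Ckm, the creatine kinase of mature muscle, was listed at 0 in 4 of the 6 E11.5 libraries and reached 0.0851 FPKM in the others and 0.348 at E13.5. Of the other receptor subunits, the fetal gamma subunit Chrng spanned 0.268 to 0.968 FPKM at E11.5 and 0.840 to 3.39 at E13.5, and the delta subunit Chrnd 0.165 to 0.403 and then 0.794 to 1.80. Calsequestrin 2 (Casq2), which stores calcium, spanned 0.0497 to 0.977 FPKM and then 1.34 to 5.82. Chrng alone of these 3 overlapped between the stages.

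Among the genes of assembly and scaffold, Smyd1 spanned 0.741 to 1.33 FPKM at E11.5 and 2.17 to 5.42 at E13.5, Klhl41, a protein that stabilises the thin filament, 0.380 to 1.68 and then 3.83 to 9.06, and the myosin chaperone Unc45b 0.148 to 0.656 and then 0.904 to 2.73. The stages were apart in all 3. Desmin (Des), the intermediate filament of muscle, stood at 5.28, 5.39 and 3.61 FPKM in E11.5 epithelium, at 4.08, 4.40 and 4.98 in E11.5 mesenchyme, at 3.60, 4.37 and 9.69 in E13.5 epithelium and at 9.63, 13.2 and 17.6 in E13.5 mesenchyme.

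Groups were compared by edgeR's quasi-likelihood test, fitted to the deposited counts of all genes, with Benjamini-Hochberg adjustment over all genes tested. A gene was called where its adjusted p was under 0.05 and its log2 fold change at least 1 in size. Errors of log2 fold changes are standard errors, and all fold changes below are on the log2 scale.

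In mesenchyme the muscle genes rose between E11.5 and E13.5. Of the 40, 39 were tested and 35 were called, all higher at E13.5, where 16.1% of the 20271 genes tested were called and 13.1% were called higher. The median log2 fold change of the tested muscle genes was 2.95, beside 0.01 over all genes. All 21 sarcomere genes rose, and so did 5 of the 6 genes of membrane and calcium, 4 of the 4 tested in assembly and scaffold, Mymk, Pax7, Myod1, Myog and Mef2c. Those not called were Pax3, Myf5, Myf6 and Ryr1, and Ckm was not tested. The libraries did not overlap in 36 of the 39, against 29.1% of all genes in that direction.

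The sizes differed by role. Acta1 rose by 5.07 ± 0.67 (adjusted p = 5.2e-04 in edgeR's test) and Actc1 by 3.23 ± 0.49 (adjusted p = 0.0011). The light chains Myl1, Myl4 and Mylpf rose by 4.12 ± 0.67, 4.69 ± 0.51 and 4.12 ± 0.36, and the heavy chains Myh3, Myh7 and Myh8 by 3.64 ± 0.56, 4.05 ± 0.33 and 3.18 ± 0.55. Among the troponins Tnnc2, the fast troponin C, rose by 4.83 ± 0.61 and Tnnt1 by 1.43 ± 0.27, and Tnnt2, Tnnt3, Tnnc1, Tnni1 and Tnni2 by 2.13 to 3.96. Actn2 rose by 3.92 ± 0.54, Tcap by 3.97 ± 0.88 and Myom1 by 1.80 ± 0.14. The giant scaffold proteins titin (Ttn) and nebulin (Neb) rose by 2.92 ± 0.34 and 2.52 ± 0.23. In the membrane Chrna1 rose by 3.86 ± 0.23, Casq2 by 3.63 ± 0.64 and Chrng by 1.74 ± 0.41, and among the scaffold genes Klhl41 rose by 2.95 ± 0.41 and Des by 1.56 ± 0.19. Ryr1 had 0.32 ± 0.14 and did not pass the test (adjusted p = 0.12). Among the myogenic factors Myod1 rose by 1.47 ± 0.31 (adjusted p = 0.0054) and Myog by 2.31 ± 0.48 (adjusted p = 0.0052), while Mef2c rose by 2.57 ± 0.12 (adjusted p = 4.2e-06). Pax7 rose by 2.52 ± 0.36 (adjusted p = 8.1e-04), and Pax3, at 0.56 ± 0.26, and Myf5, at 0.24 ± 0.29, did not pass the test (adjusted p = 0.12 and 0.56). The number of genes called was 28 to 36 under every alternative tried, and no muscle gene named here lost its call with 1 library left out. Genes of other tissues differed as well: 6 of 15 keratin and junction genes were called higher at E13.5, as were 7 of 10 markers of chondrocytes and osteoblasts, which summed to 81.9 to 98.3 FPKM at E11.5 and 338 to 519 at E13.5, 4 of 6 tendon genes and 6 of 9 smooth muscle genes. Their part in the muscle values was not tested.

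**Figure D3:**
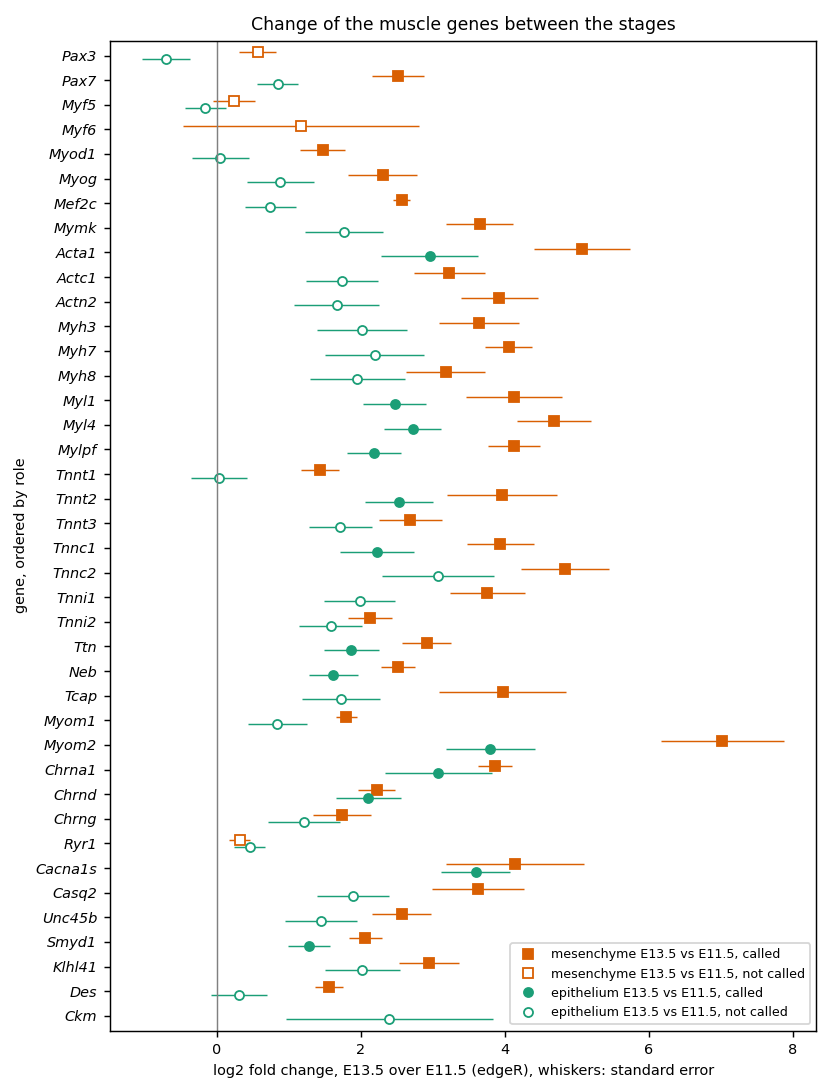
Log2 fold change of E13.5 over E11.5 (horizontal axis) for each tested muscle gene in mesenchyme (squares) and epithelium (circles), with standard errors, filled where the gene was called by edgeR. In mesenchyme 35 symbols are filled and in epithelium 13, and most genes lie further right in mesenchyme.

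In epithelium the same comparison gave fewer calls. Of 39 genes tested, 13 were called, all higher at E13.5, where 5.56% of the 20467 genes tested were called and 4.27% were called higher. The median log2 fold change was 1.76, beside 0.05 over all genes, 29 had an unadjusted p under 0.05 in that direction, against 15.7% of all genes, and 32 of the 39 had no overlap between the libraries, against 18.2% of all genes. Called were the sarcomere genes Acta1, Myl1, Myl4, Mylpf, Tnnt2, Tnnc1, Ttn, Neb and Myom2, the receptor genes Chrna1 and Chrnd, Cacna1s and Smyd1, a histone methyltransferase of muscle. Acta1 rose by 2.95 ± 0.67 (adjusted p = 0.041 in edgeR's test), Mylpf by 2.18 ± 0.38 (adjusted p = 0.022) and Cacna1s by 3.60 ± 0.48 (adjusted p = 0.013). Myl4 and Myl1 rose by 2.72 ± 0.40 and 2.47 ± 0.44, Tnnt2 by 2.53 ± 0.48, Chrna1 by 3.07 ± 0.74 and Smyd1 by 1.27 ± 0.29. Myh3 had 2.02 ± 0.63 and Actc1 1.74 ± 0.50, which did not pass the test (adjusted p = 0.092 and 0.076). No precursor or myogenic factor was called. Myod1 had a log2 fold change of 0.05 ± 0.40, Myog of 0.88 ± 0.47 and Pax3 of -0.70 ± 0.34.

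The number of epithelial calls depended on which library was left out. Without E11.5 epithelium replicate 1 or replicate 2 no muscle gene was called by edgeR (28 had an unadjusted p under 0.05 in each fit), and of all genes 0.266% and 0.243% were called. Without E13.5 epithelium replicate 1 there was 1, beside 0.391% of all genes, and without E13.5 epithelium replicate 2 there were 8, beside 2.82%. The calls over the whole table thus fell in the same fits, from 5.56%. Without E11.5 epithelium replicate 3 there were 11, all higher, beside 4.84% of all genes. Without E13.5 epithelium replicate 3 there were 12, beside 10.6%, of which 11 were higher and 1, Pax3, was lower. Among the genes called with all libraries, Smyd1 lost its call in each of the 6 fits with 1 library left out. Tnnc1, Chrna1 and Chrnd lost theirs in 5 of the 6, Cacna1s in 2 and the others in 3 or 4. With E11.5 epithelium replicates 1 and 2 counted as 1 library, a choice made after seeing the data, the count was 0, again with 28 at an unadjusted p under 0.05 and beside 0.29% of all genes, and with DESeq2 it was 27, beside 10.2%. Myod1 turned from 0.05 to -0.29 without E11.5 epithelium replicate 3 and to -0.23 without E13.5 epithelium replicate 3, so no direction is given for it in epithelium. Keratin and mesenchyme markers moved in the same libraries. In E13.5 epithelium replicates 1, 2 and 3 the 15 mesenchyme markers summed to 496, 328 and 1212 FPKM, the 15 keratin and junction genes to 2362, 3464 and 708 and the 40 muscle genes to 235, 233 and 470. The part of these marker differences in the muscle values was not tested.

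At E11.5 no muscle gene was called between the tissues. Of the 38 tested, 0 passed with edgeR and DESeq2 called 2, while 4.16% of the 20063 genes tested were called. At an unadjusted p under 0.05, 2 were higher and 3 lower in epithelium, against 12.2% and 7.75% of all genes. The fold change favoured epithelium for 28 of the 38, against 51.2% of all genes, with a median of 0.55 on the log2 scale beside 0.01 over all genes. In E11.5 epithelium the 10 neuron markers summed to 179, 181 and 50.7 FPKM and the 40 muscle genes to 143, 144 and 55.3. In mesenchyme the neuron markers summed to 25.1, 19.0 and 20.0, in another order than the muscle genes, at 37.3, 92.8 and 100.9. Of the neuron markers 7 were called higher in epithelium. The 8 erythroid markers summed to 5311, 5397 and 2067 FPKM in epithelium and to 3757, 8286 and 8869 in mesenchyme, and 0 were called. The part of either list in the muscle values was not tested. The count was 2 without E11.5 epithelium replicate 3, beside 6.34% of all genes, and 1 without replicate 2, beside 2.49%. Pax3 was lower in epithelium by a log2 fold change of -0.97 ± 0.19 (adjusted p = 0.026 in edgeR's test), just short of the fold threshold. Pax7 had 1.41 ± 0.36 (adjusted p = 0.065), Mylpf 1.35 ± 0.37 (adjusted p = 0.082), Acta1 1.06 ± 0.79 and Myog 1.0 ± 0.60 (adjusted p = 0.52 and 0.41). With the number in the library names as a block, 9 were called, 8 higher and 1 lower in epithelium, beside 4.69% of all genes. This block sets an epithelium beside a mesenchyme library, and whether the 2 share embryos is not given in the sources used here. With the 4 libraries without a number in their names as a covariate, the count became 10: Pax7, Myog, Acta1, Actn2, Myl1, Myl4, Mylpf, Tnnc1 and Tnni1 were higher in epithelium and Pax3 was lower. In that fit 6.05% of all genes were called.

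At E13.5 the muscle genes leaned the other way. Of the 40 tested, Pax3 and Mef2c were called, both lower in epithelium, where 1.76% of the 20584 genes tested were called and 0.17% were called lower. The log2 fold change of epithelium over mesenchyme was -2.30 ± 0.39 for Pax3 (adjusted p = 0.044 in edgeR's test) and -2.18 ± 0.36 for Mef2c (adjusted p = 0.043). It was above 0 for 1 of the 40 genes, Myf6, against 49.3% of all genes, with a median of -0.88 beside -0.01 over all genes. Lower at an unadjusted p under 0.05 were 18 of the 40, against 2364 of all 20584 genes, and 13 had no overlap between the libraries, against 17.3% of all genes. Myod1 had -0.92 ± 0.27, Myog -0.48 ± 0.30, Acta1 -1.12 ± 0.49 and Actc1 -0.87 ± 0.37, with adjusted p between 0.12 and 0.36.

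At E13.5 the number of calls changed with each library left out. Without E13.5 epithelium replicate 3, 26 of the 40 were called lower in epithelium, while 16.0% of all genes were then called. Without any 1 of E13.5 epithelium replicate 1 and mesenchyme replicates 1, 2 and 3 the count was 0, and no gene of the whole table was called by edgeR either, so these counts say nothing of the muscle genes. Without epithelium replicate 2 it was 1, beside 0.528% of all genes. With 1 library left out at a time, the log2 fold change of Pax3 ranged from -2.67 to -1.92 and that of Mef2c from -2.49 to -1.85. Of the fits that gave 0, those without mesenchyme replicate 1, 2 or 3 had 21, 6 and 7 genes at an unadjusted p under 0.05 and that without epithelium replicate 1 had 5.

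Whether tissue and stage interact was tested over all 12 libraries. With edgeR 0 of the 40 were called, while 0.204% of all genes were, and 15 had an unadjusted p under 0.05 with a difference that moved toward mesenchyme, against 8.89% of all genes. DESeq2 called 3. The interaction was -1.86 ± 0.40 on the log2 scale for Mef2c (adjusted p = 0.078 in edgeR's test), -1.71 ± 0.50 for Pax7 (adjusted p = 0.16) and -2.15 ± 1.01 for Acta1 (adjusted p = 0.34). Without E13.5 epithelium replicate 3 the count was 12, beside 13.4% of all genes, and without E13.5 epithelium replicate 2 it was 1, beside 0.191%.

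The libraries whose names carry no number were compared with the other 2 of their group for the 28 muscle genes with a mean of at least 1 FPKM over the 12 libraries. Their level was a median of 39.1% of the mean of the other 2 in E11.5 epithelium, while it was 30.9% in E11.5 mesenchyme, 194% in E13.5 epithelium but 62.6% in E13.5 mesenchyme. Over 13116 genes the same medians were 92.4 to 96.8%. Within this class, epithelium exceeded mesenchyme at E13.5 for 25 of the 40 genes, with a median ratio of 1.16 over the 38 genes above 0 in both tissues. In the numbered libraries epithelium was the higher for 1 of the 40, with a median ratio of 0.348. Of the 13123 genes with a mean of at least 1 FPKM, 48.1% and 50.4% were higher in epithelium in the 2 classes. Only 28 of the 40 muscle genes passed that limit, and all 40 are counted here. At E11.5 both classes leaned to epithelium, which was the higher for 31 and 27 of the 40 genes. Median ratios were 1.68 over 35 genes and 1.42 over 39, those above 0 in both tissues. In the first class Myf6, Tcap, Myom2, Cacna1s and Ckm had 0 in mesenchyme, and they are among the 31. Of the same 13123 genes 49.8% and 38.9% were higher in epithelium. The lower median of epithelium at E13.5 was thus seen in 1 of the 2 classes of libraries. Pax3 and Mef2c were lower in epithelium in both classes, Pax3 with ratios of 0.201 and 0.201 and Mef2c with 0.257 in the libraries without a number and 0.191 in the numbered ones.

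**Figure D4:**
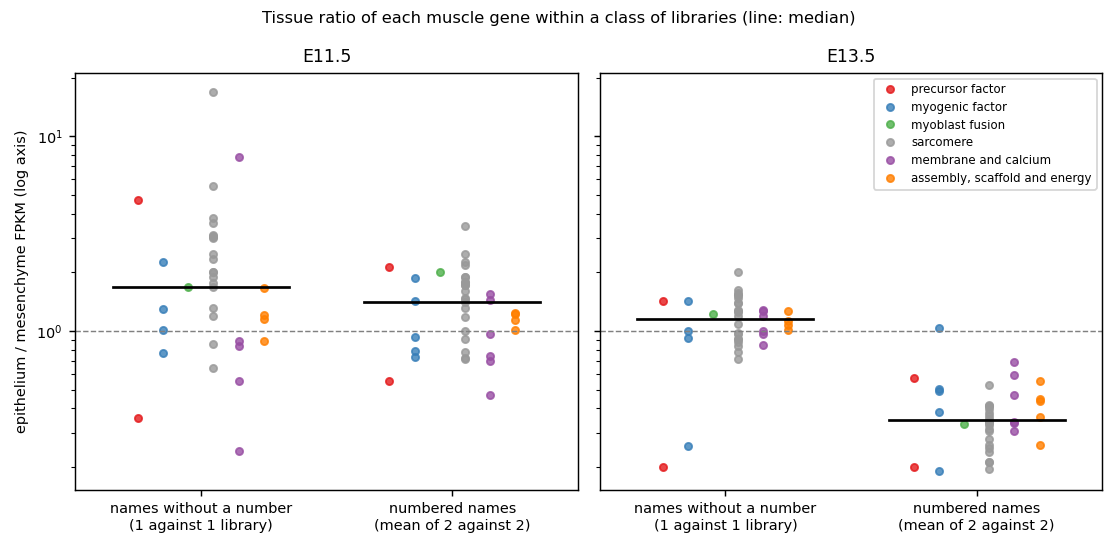
Ratio of epithelium to mesenchyme FPKM (vertical log axis) of each muscle gene with a value in both tissues, coloured by role, at E11.5 and E13.5, within the libraries whose names carry no number and within the numbered ones, with a line at the median. At E13.5 the median is 1.16 in the first class and 0.348 in the second.

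The difference was graded by exon length in some groups and not in others. In E13.5 mesenchyme the library without a number had a median of 53.7% of the other 2 for the 10 muscle genes with under 2000 bases of exon, 62.8% for 13 genes of 2000 to 5000 bases and 94.0% for 5 longer ones. The same medians over 13116 genes with a mean of at least 1 FPKM were 83.9%, 91.4% and 107%. The 5 longer muscle genes were Pax3 (182%), Pax7 (66.6%), Mef2c (123%), Myh3 (94.0%) and Tnnt2 (57.2%). Precursor and myogenic factors are thus among them, and length cannot be told apart from role here. In E11.5 epithelium the muscle medians of the 3 length classes were 33.2, 39.55 and 60.6%, in E11.5 mesenchyme 28.9, 28.8 and 36.2%, and in E13.5 epithelium they went the other way, at 201, 199 and 166%. In the E13.5 mesenchyme library Acta1, a short gene, stood at 18.6 FPKM beside 44.9 and 53.5, and Myh3, a long one, at 24.7 beside 27.1 and 25.5. Tnnt2, also a long one, stood at 2.47 FPKM in that library, beside a mean of 4.32 in the other 2. Across the 28 genes Spearman's rho of exon length and this percentage was 0.49 in E13.5 mesenchyme, beside 0.40 over 13116 genes, and 0.37, 0.16 and -0.04 in E11.5 epithelium, E11.5 mesenchyme and E13.5 epithelium, over genes which share libraries and are not independent. The part of exon length in the muscle values was not tested.

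Ratios were also taken within each library, between genes of the same muscle program. The sum of the 21 sarcomere genes was 5.63 to 7.88 times the level of Myod1 in the 6 libraries of E11.5 and 20.6 to 29.6 times in the 6 of E13.5. Replicate 3 of E11.5 epithelium, with the lowest Myod1 of its group, had 7.81, beside 7.87 and 7.88. Acta1 was 0.0628 to 0.135 times Myog at E11.5 and 0.347 to 0.898 times at E13.5, and Myog was 0.969 to 2.27 times Myod1 and 2.46 to 3.95 times. In all 3 ratios the stages did not overlap, and in the first the tissues overlapped at E13.5. Per unit of Myod1 RNA, sarcomere RNA was thus higher at E13.5 in both tissues, a description with no test.

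**Figure D5:**
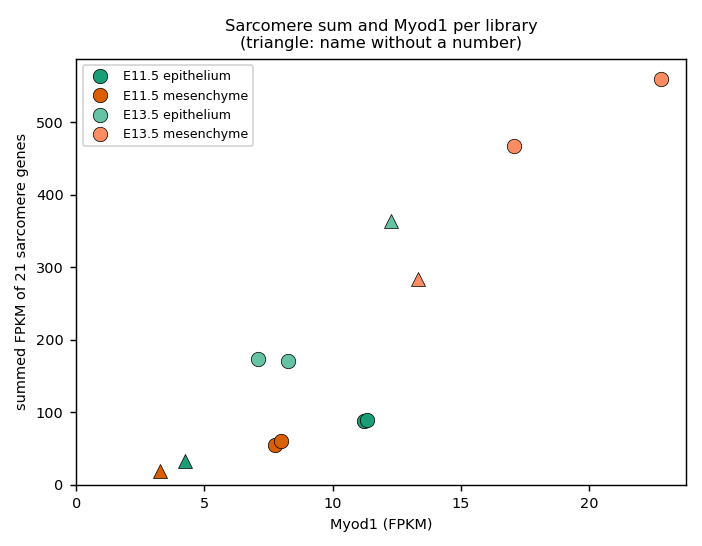
Summed FPKM of the 21 sarcomere genes (vertical axis) against Myod1 (horizontal axis, FPKM) in the 12 libraries, coloured by group, with triangles for the libraries whose names carry no number. The 6 E11.5 libraries lie on a low line with ratios of 5.63 to 7.88 and the 6 E13.5 libraries on a steep one with ratios of 20.6 to 29.6.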

How the data were processed

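RNA-seq libraries of dental epithelium and mesenchyme were made by the authors from poly(A) RNA, and per the submitters' processing notes the reads were handled with Cutadapt 1.9, HISAT2 2.0.4 and StringTie 1.3.4d on mm10. The deposited FPKM values were computed by the authors from the assembled transcripts and were used for levels, sums, shares and ratios. How the authors made the deposited counts is not given in the sources used here. They are whole numbers that sum to more than the listed reads, and they were treated as estimated counts and used as deposited for all tests. Whether the counting used strand is not given in the sources used here.

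Tests used edgeR 4.0.16 in R 4.3.3 (filterByExpr, TMM, glmQLFit, glmQLFTest), fitted to the 6 libraries of a comparison or, for the interaction, to all 12. Standard errors come from dividing each log2 fold change by the square root of its F. DESeq2 1.42.0 and limma 3.58.1 on log2(FPKM + 0.5), with pseudocounts of 0.1 and 1, were alternatives, as were other filters (none, or 1 CPM in 3 libraries), RLE factors, a fit of all libraries, blocks, a covariate for the 4 libraries without a number in their names and leaving out each library. The numbers in the library names were used as a block in every comparison, and were read as a possible pairing of the tissues at E11.5 only. Between the stages no embryo is shared, so there the block groups unrelated libraries. Within a tissue it is the same grouping as that by replicate number. Between the tissues at E11.5 deviations of all 3 pairs from their group means correlated at 0.143 to 0.322. The 3 deviations of a group sum to 0, so a shift shared by the libraries without a number raises the other pairs as well. These correlations therefore cannot tell pairing from such a shift. Between the stages in mesenchyme, where no embryo is shared, the 3 pairs correlated at 0.0539 to 0.207. The steps were tested on simulated counts. Named are all 40 genes, with every library for the 3 markers and the precursor and myogenic factors, in each role the most abundant and the called genes, and of the other lists up to 4 called genes with the largest change per comparison. Results of a gene among the head muscle progenitors are not reported here. The genes and lists were chosen with earlier results of these data known. Exon lengths are from GENCODE and promoters from RefSeq.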

Additional observations from a re-analysis of the deposited data

How the results depend on the processing

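In mesenchyme between the stages 28 to 36 muscle genes were called under every alternative and 35 to 36 with single libraries left out, beside 35. Between the tissues at E11.5 (0 called) the count was 2 with DESeq2 (6.12% of all genes called) and 1 with limma at a pseudocount of 0.1 (3.96%). It was 9 with the library name as a block (4.69%), 10 with the covariate (6.05%) and 1 with E11.5 epithelium replicates 1 and 2 averaged (2.58%). With single libraries left out it was 0 to 2 (2.37 to 6.34%). At E13.5 (2 called) it was 7 with DESeq2 (7.89% of all genes), 0 with limma at pseudocounts of 0.5 and 1, 0 without a filter, 0 with the library name block, fits in which 0 of all genes were called and 13 to 23 muscle genes had an unadjusted p under 0.05, and 0 to 26 with single libraries left out. In epithelium between the stages (13 called) it was 27 with DESeq2 (10.2% of all genes), 5 without a filter (1.83%), 20 with all 12 libraries in one fit (8.37%), 0 with the library name block (0.264%, and 21 muscle genes at an unadjusted p under 0.05), 0 with those 2 replicates averaged and 0 to 12 with single libraries left out. The interaction (0 called) gave 3 with DESeq2 (4.29% of all genes), 1 with limma at a pseudocount of 1 (0.502%) and 0 to 12 with single libraries left out. The causes of these shifts were not tested.

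Deviations of libraries with the same replicate number from their group means correlated between -0.378 and 0.207 over 18 pairs. Pairs across the stages share no embryo. Between the tissues the libraries without a number in their names fall under different replicate numbers, so a shift that they share also enters these correlations. Whether the replicate numbers pair the tissues therefore cannot be decided from these correlations. With the replicate block the counts were 0 at E11.5, 0 at E13.5, 0 in epithelium, 35 in mesenchyme and 0 for the interaction, beside 2.7, 0, 0.264, 16.4 and 0.0859% of all genes. Between the stages of a tissue this is the same fit as the library name block, not a separate check.

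Of the 104 fold changes followed, 3 turned sign, all in epithelium between the stages and none of them called: Tnnt1 to -0.00757 with DESeq2, to -0.00753 with RLE factors, to -0.26 without E11.5 epithelium replicate 3 and to -0.40 without E13.5 epithelium replicate 3, Myod1 to -0.29 and -0.23 without the same libraries, and Des to -0.27 without the latter. With single libraries left out Tnnt1 ranged from -0.40 to 0.21, Myod1 from -0.29 to 0.25 and Des from -0.27 to 0.57. Ckm was too low to be tested in mesenchyme between the stages.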

Other observations

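A further 50 skeletal muscle genes outside the set of 40 moved in the same way. In mesenchyme 36 of the 46 tested were called higher at E13.5 by edgeR and 0 lower, against 13.1% of all genes called higher, and in epithelium 10 of 46 were called higher, against 4.27%. Between the tissues 0 were called by edgeR at either stage, against 4.16% of all genes at E11.5 and 1.76% at E13.5. At an unadjusted p under 0.05, 12 of 47 were lower in E13.5 epithelium, against 2364 of all 20584 genes, and 3 of 38 were higher and 1 lower in E11.5 epithelium, against 12.2% and 7.75%. Cav3, the muscle caveolin, stood at 0 to 0.0837 FPKM in E11.5 mesenchyme and at 1.21, 2.36 and 2.60 at E13.5, and it rose by 5.50 on the log2 scale. Trim54 and Cox6a2 rose there by 5.78 and 5.54 on the log2 scale. In epithelium Cav3 rose by 4.61, Ldb3 by 2.74 and Myoz2 by 2.72, calls that were lost without E11.5 epithelium replicate 1 or 2. Of the 6 fits with 1 library left out, the calls of Cav3 and Ldb3 were lost in 4 each and that of Myoz2 in 5. Hspb7 was listed at 0 in all 6 libraries of E11.5 and at 0.0495 to 0.200 FPKM in those of E13.5.

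The 12 genes of head muscle progenitors did not follow the contractile genes. They summed to 59.5 to 99.0 FPKM at E11.5 and to 62.1 to 76.6 at E13.5, and several of them also act in epithelium. Between the tissues at E11.5, genes called higher in epithelium by edgeR included Isl1 and Lhx2, by 2.96 and 2.52 on the log2 scale, and none was called at E13.5, where 3 were higher and 4 lower at an unadjusted p under 0.05. From E11.5 to E13.5 in mesenchyme Msc and Met rose by 2.13 and 1.93, while Lbx1, Six4, Tcf21 and Eya1 fell by 1.36, 1.07, 1.06 and 1.01. In epithelium Met rose by 1.41, and Lbx1 and Tcf21 fell by 2.71 and 2.42, calls lost without E11.5 epithelium replicate 1 or 2. Of the 6 fits with 1 library left out, the call of Met was lost in 4, and those of Lbx1 and Tcf21 in 3 each. With single libraries left out the change in mesenchyme ranged from -1.77 to -0.99 for Lbx1, from -1.27 to -0.66 for Tcf21, from -1.16 to -0.94 for Six4 and from -1.21 to -0.82 for Eya1. The calls of all 4 were lost without E11.5 mesenchyme replicate 1, and that of Lbx1 or Tcf21 without any 1 of the other libraries. The call of Eya1 was also lost without E13.5 mesenchyme replicate 3. Lhx2 lost its call at E11.5 without epithelium replicate 1 or 2 or mesenchyme replicate 2, at 2.58, 2.70 and 2.61.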
